A study of Homo sapiens with 18 samples.

Results

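The genes described here are the long noncoding RNAs named as hosts of miRNAs, that is, genes whose symbol begins with MIR and ends with HG, other than MIR210HG and MIR663AHG. The RNAseq table of 38055 genes holds 47 of them, and 24 had a normalized value of at least 10 in 3 or more of the 6 libraries of day 3 and day 5. The values come from wild-type HCT116, an established human colorectal carcinoma cell line of epithelial origin. The cells were seeded on day 0 and left to grow to 50% confluency on day 3 and 250% on day 5, and to 400% on day 7 by the labels, with no other treatment in any group. Whole-cell RNA of each day gave 3 small RNA libraries, and RNAseq values of day 3 and day 5, 3 libraries each, were used; RNAseq of day 7 was not analysed here. All libraries come from 1 cell line in flat culture, and day in culture and density change together in this design.

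A miRNA begins as a hairpin in a longer transcript. DROSHA with DGCR8 cuts the hairpin out in the nucleus, DICER1 removes the loop in the cytoplasm, and 1 of the 2 arms, 5p or 3p, is kept by an Argonaute protein as the mature miRNA of about 22 bases, whose bases 2 to 8, the seed, pair with target mRNAs. Where the hairpin lies in an exon of its host, cutting destroys that copy of the spliced RNA, whereas a hairpin in an intron can be released without loss of the spliced host; the host RNA that is sequenced and the mature miRNA also differ widely in lifetime. The spans of the 24 hosts hold 42 annotated hairpins on the same strand, 21 of them inside an exon of at least 1 transcript and 21 in introns. Of 69 mature miRNAs that the small RNA table lists for these hairpins, 50 from 17 hosts passed the filter for a test, and 37 of those 50 are made by a single hairpin.

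The mature sequences on which the results turn are given 5′ to 3′ from RefSeq on GRCh38.p14, with the seed in capitals. MIR17HG (chr13:91347686-91397592, plus strand) carries 6 hairpins within 787 bases, all inside an exon. Within the cluster, the miR-17 and miR-20a guide strands share 1 seed, and miR-19a-3p and miR-19b-3p share another, while miR-18a-5p and miR-92a-3p each have their own.
miR-17-5p: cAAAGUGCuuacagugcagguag
miR-20a-5p: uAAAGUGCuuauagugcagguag
miR-18a-5p: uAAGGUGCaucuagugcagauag
miR-19a-3p: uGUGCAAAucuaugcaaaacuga
miR-19b-3p: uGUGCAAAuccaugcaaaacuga
miR-92a-3p: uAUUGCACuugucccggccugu

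The let-7 hairpins are spread over 4 of the hosts, MIRLET7A1HG, MIR100HG, MIRLET7BHG and MIRLET7IHG, and their 5p arms share 1 seed. They are shown together because they differ at few bases outside it, so reads of 1 member could have been counted for another.
let-7a-5p: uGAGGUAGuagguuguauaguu
let-7b-5p: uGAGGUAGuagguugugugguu
let-7d-5p: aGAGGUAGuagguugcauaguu
let-7f-5p: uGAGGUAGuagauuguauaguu
let-7i-5p: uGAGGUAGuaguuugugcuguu

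The miRNAs of the other hosts that moved, or that were most abundant, are shown next. Among the tested miRNAs of these hosts with a RefSeq sequence, each has its own seed. The exceptions are miR-181a-5p and miR-181b-5p of MIR181A2HG, which share 1. Seeds of miRNAs outside these hosts were not compared.
miR-31-5p: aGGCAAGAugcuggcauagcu
miR-22-3p: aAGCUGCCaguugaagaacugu
miR-34a-5p: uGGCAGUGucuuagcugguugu
miR-100-5p: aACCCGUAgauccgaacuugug
miR-125b-5p: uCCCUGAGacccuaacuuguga
miR-9-3p: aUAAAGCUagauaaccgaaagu
miR-193b-3p: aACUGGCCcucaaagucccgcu
miR-141-3p: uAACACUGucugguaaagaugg
miR-200c-3p: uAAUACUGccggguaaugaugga
miR-181a-5p: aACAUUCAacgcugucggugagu
miR-181b-5p: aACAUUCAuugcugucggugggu

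The RNAseq libraries held 27470978 to 56689369 reads on genes. For small RNA the paper gives a range of reads over the libraries, but the depth of each single library is unknown. Of 7 epithelial markers, VIL1 was near 0 on both days, EPCAM did not pass the test, and CDH1, KRT8, KRT18, KRT19 and CLDN4 were higher on day 5. Of 6 markers of other cells in the table, 5 had a mean under 10 on both days; only COL1A1 was tested, and the summed value of the list was 489 to 585 in the day 3 libraries and 1106 to 1173 in those of day 5. The part of these markers in the results was not tested. In bulk RNA, fewer cells with a transcript and less of it per cell cannot be told apart. The labels call the replicates biological but do not say that they came from separate cultures, so p-values measure only the spread between these libraries.

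The hosts covered a wide range of levels. MIR100HG, the host of miR-100, let-7a-2 and miR-125b-1, had by far the highest normalized values, with a mean of 5987 ± 606 (SD, n = 3) on day 3 and 5405 ± 235 on day 5. The lowest were MIR3677HG, with means of 17.6 and 13.2, and MIR181A2HG, with 17.4 and 18.1, the former counted from 8 to 25 reads per library. Per kilobase of merged exon, the highest mean levels on day 3 were 472 for MIR378D2HG, 198 for MIR100HG and 172 for MIR200CHG, and the lowest was 3.53 for MIR34AHG. Among the 23 hosts not described further, 22 had no library at a value of 10. MIR4527HG, just outside the limit, reached it in 1 library with 14.8, while MIR3677HG, just inside it, had values of 21.9, 12.4 and 18.4 on day 3 and 11.9, 19.3 and 8.28 on day 5. The 22 include the hosts of several tissue-restricted miRNAs, such as MIR155HG, MIR124-1HG, MIR137HG, MIR205HG, MIR302CHG, MIR1-1HG, MIR133A1HG and MIR9-3HG, and also MIR497HG, MIR5689HG, MIR4422HG, MIR3663HG, MIR670HG, MIR4300HG, MIR4500HG, MIR381HG, MIR2117HG, MIR7-3HG, MIR3681HG, MIR99AHG, MIR4458HG and MIR3150BHG.

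**Figure D1:**
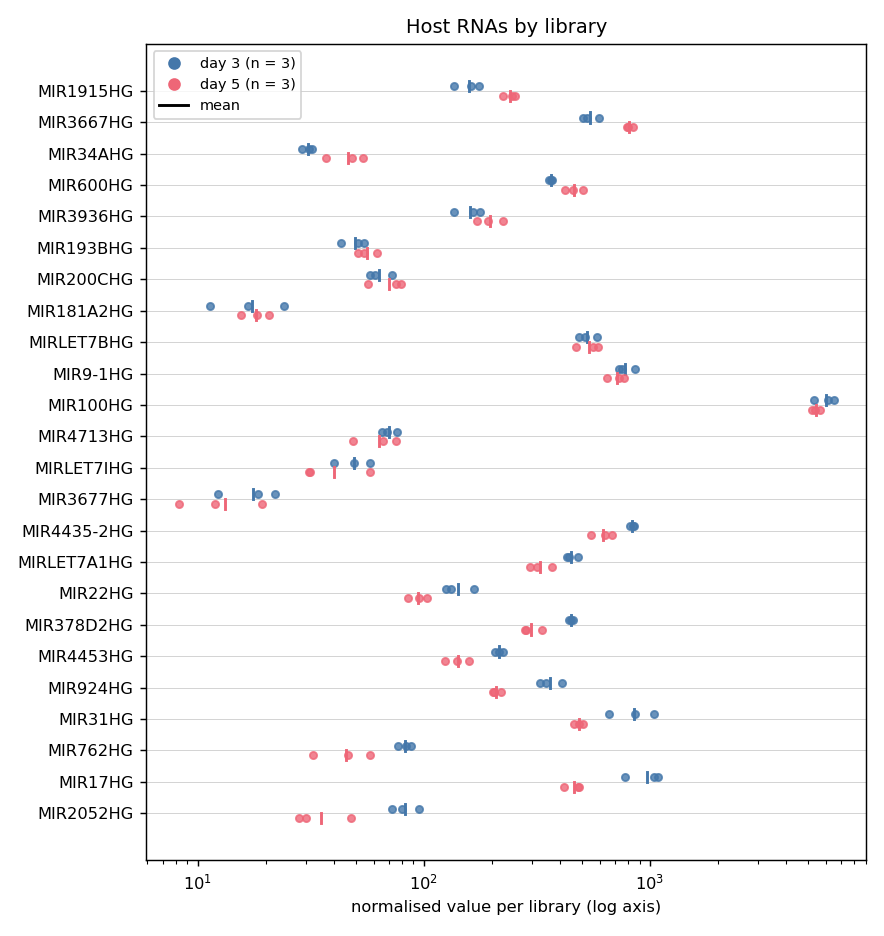
Normalized RNAseq value of each of the 24 host RNAs in each library (log axis), ordered by log2 fold change; points are libraries, 3 on day 3 (blue) and 3 on day 5 (red), and bars are means. The libraries of both days do not overlap for 14 hosts, and MIR100HG lies above all others at 5183 to 6496.

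Between day 3 and day 5, 14 of the 24 hosts passed the test, 10 lower and 4 higher on day 5, with the largest falls in MIR2052HG and MIR17HG and the largest rises in MIR1915HG and MIR3667HG. The test was limma on log2(value + 1), adjusted by Benjamini-Hochberg over 20129 genes at a threshold of 0.05, and it called 56.9% of all genes, 29.3% higher and 27.6% lower. The share of hosts called is thus close to that of all genes. Their median log2 fold change was -0.25, against 0.01 over all genes tested. The libraries of both days did not overlap for the same number, 14, and for 65.0% of all genes. Of the 10 hosts that fell, 2 fell at least 2-fold, while 17.8% of all genes passed both the test and that limit.

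MIR17HG, the primary transcript of the miR-17 to miR-92a cluster, which MYC is known to drive, had normalized values of 1043, 1081 and 780 on day 3 and 479, 417 and 485 on day 5. Every day 5 library lay well below every day 3 library. The log2 fold change was -1.06 ± 0.15 (SE; limma adjusted p = 0.0017), and it was called without any 1 of the 6 libraries.

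MIR31HG (chr9:21380073-21559891, minus strand), a long transcript with the MIR31 hairpin in an intron, had values of 858, 660 and 1045 on day 3 and 504, 486 and 464 on day 5. The day 5 libraries lay close together and below all of day 3. The log2 fold change was -0.79 ± 0.17 (limma adjusted p = 0.0094). Its span also holds IFNE and other genes on the same strand, which the counting could share with it. Other genes on the same strand also overlap the spans of MIR924HG, MIR3667HG, MIR4435-2HG, MIR34AHG, MIR600HG, MIR100HG, MIRLET7BHG and MIRLET7IHG.

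MIR22HG (chr17:1711447-1717174, minus strand) carries MIR22 in an exon and had values of 132, 125 and 167 on day 3 and 95.4, 103 and 84.9 on day 5. The groups did not overlap, and the log2 fold change was -0.57 ± 0.14 (limma adjusted p = 0.015). It was not called without day 5 replicate 3 (adjusted p = 0.0502) or with no filter on low values (0.059).

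MIRLET7A1HG (chr9:94166258-94200905, plus strand) carries the let-7a-1, let-7f-1 and let-7d hairpins in exons. Its values were 479, 430 and 437 on day 3 and 316, 371 and 295 on day 5, with no overlap. The log2 fold change was -0.46 ± 0.11 (limma adjusted p = 0.014), and it was not called with no filter on low values (adjusted p = 0.065).

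The miRNAs of the other 6 hosts that fell were not among those tested, apart from miR-378d and miR-4435. MIR2052HG had values of 94.8, 79.7 and 72.3 on day 3 and 47.7, 30.0 and 28.0 on day 5, a difference of -1.23 ± 0.22 on the log2 scale (limma adjusted p = 0.0045). MIR762HG had 77.3, 83.5 and 87.9 on day 3 against 32.5, 46.1 and 57.99 on day 5. MIR924HG had 410, 347 and 326 against 205, 203 and 220. In each of these hosts the highest day 5 library lay below the lowest of day 3.
MIR4453HG fell from a mean of 215 ± 9.03 (SD, n = 3) to 141 ± 17.0, and MIR378D2HG from 448 ± 9.61 to 299 ± 30.1. MIR4435-2HG, a transcript of many exons, fell from 836 ± 18.3 to 621 ± 66.3, and was not called with no filter on low values (limma adjusted p = 0.062). The log2 fold changes of MIR762HG, MIR924HG, MIR4453HG, MIR378D2HG and MIR4435-2HG ran from -0.89 to -0.43.

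The 4 hosts that rose did so by less than 2-fold. MIR1915HG had values of 162, 176 and 136 on day 3 and 224, 253 and 246 on day 5 (log2 fold change 0.61 ± 0.12, limma adjusted p = 0.0058). MIR3667HG had 597, 529 and 506 on day 3 and 803, 840 and 788 on day 5 (0.58 ± 0.09, limma adjusted p = 0.0026). Both groups were tight and apart.
MIR34AHG, the host of miR-34a and a known target of p53, was low, at 29.0, 32.1 and 31.2 on day 3 and 36.9, 48.2 and 53.8 on day 5. The log2 fold change was 0.56 ± 0.15 (limma adjusted p = 0.021) on 22 to 52 reads per library. It was not called without day 3 replicate 1 (adjusted p = 0.063), day 5 replicate 2 (0.065) or day 5 replicate 3 (0.054), nor by edgeR (0.053) or DESeq2 (0.15), nor with no filter on low values (0.073).
MIR600HG lies inside STRBP on the same strand, and its reads cannot be told from those of unspliced STRBP. Its values were 370, 365 and 359 on day 3 and 457, 422 and 505 on day 5 (log2 fold change 0.34 ± 0.09, limma adjusted p = 0.021). It was not called without day 3 replicate 2 (adjusted p = 0.063), day 5 replicate 1 (0.059) or day 5 replicate 3 (0.062), nor with no filter on low values (0.10).

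The other 10 hosts did not pass the test, and their libraries overlapped between the days. MIR100HG had values of 6496, 6148 and 5316 on day 3 and 5183, 5380 and 5652 on day 5. Its log2 fold change was -0.14 with a 95% interval of -0.39 to 0.11. MIRLET7BHG, which carries let-7a-3 and let-7b, had 581, 487 and 519 on day 3 and 588, 559 and 473 on day 5, with an interval of -0.26 to 0.32. MIR9-1HG had means of 777 ± 68.9 (SD, n = 3) and 715 ± 62.3.
MIR200CHG, which carries miR-200c and miR-141, known to act on the epithelial repressors ZEB1 and ZEB2, had means of 63.7 ± 7.58 and 70.4 ± 12.3. MIR193BHG had 49.6 ± 5.72 and 55.9 ± 5.54, MIR3936HG 159 ± 21.2 and 196 ± 26.0, and MIR4713HG 70.1 ± 5.73 and 63.4 ± 13.4. These 4 intervals each include 0.
MIRLET7IHG had values of 49.2, 40.2 and 58.1 on day 3 and 31.5, 31.1 and 57.99 on day 5. Day 5 replicate 3 stood with day 3, and without it the log2 fold change moved from -0.33 to -0.62 and was called (limma adjusted p = 0.034). For MIR3677HG and MIR181A2HG, at 8 to 39 reads per library, the intervals were -1.25 to 0.39 and -0.55 to 0.76, so a 1.5-fold fall of the former and a 1.5-fold rise of the latter lie within them.

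**Figure D2:**
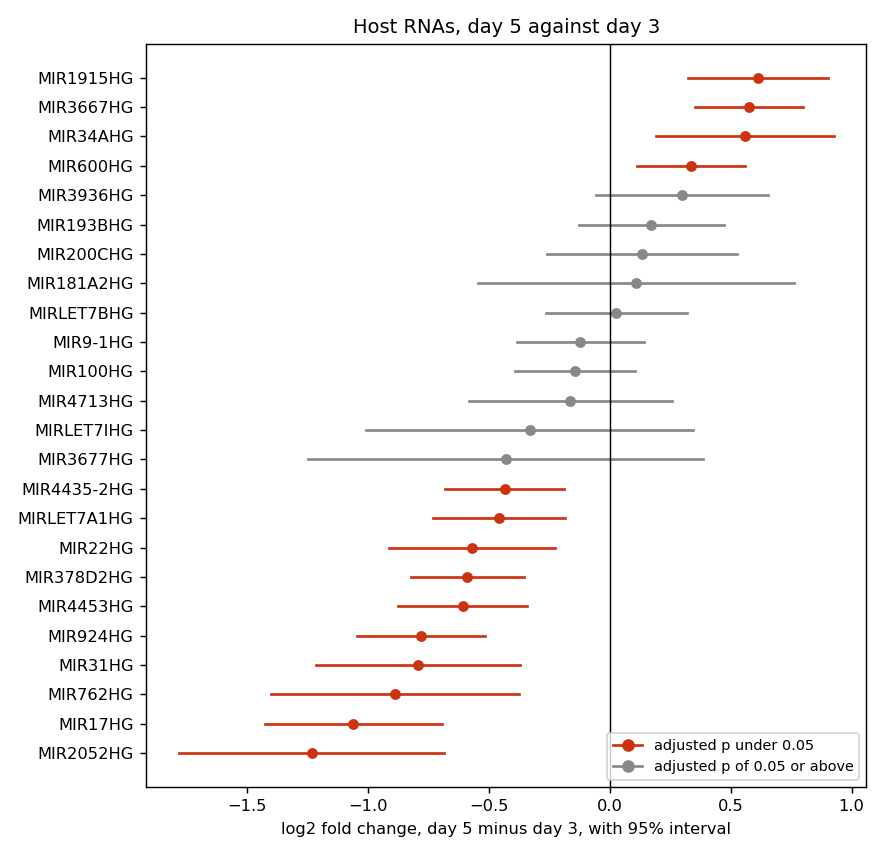
Log2 fold change (day 5 minus day 3, log2(value + 1) scale) of the 24 host RNAs with limma's 95% interval; red marks the 14 with adjusted p under 0.05 and gray the 10 others. The 10 hosts that fell run from -1.23 (MIR2052HG) to -0.43 (MIR4435-2HG), and the 4 that rose from 0.34 (MIR600HG) to 0.61 (MIR1915HG).

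Few of the mature miRNAs of these hosts were called on day 5 with the deposited scaling. Among 50 tested, 3 passed the test: let-7d-3p and miR-193b-3p were higher and miR-9-3p was lower. The same test called 14.8% of 539 miRNAs, 8.53% higher and 6.31% lower. The median log2 fold change was 0.02 over these 50 and 0.07 over all. The count depends on the scaling: 12 were called with each library divided by its total (7 higher, 5 lower), and 11 when centered on the median of the well-expressed miRNAs (7 higher, 4 lower). The calls over all 539 miRNAs grew as well, to 135 with library totals (72 higher, 63 lower) and 124 with centering (82 higher, 42 lower). The count for the 50 also rests on single libraries: it was 10 without day 3 replicate 3, and 1 (miR-9-3p) without day 3 replicate 1 or without any 1 of the 3 day 5 libraries. Of the 10 hosts whose RNA fell, 6 had a tested miRNA, and with the deposited scaling limma called a miRNA lower on day 5 for 0 of these 6, where over all 50 miRNAs 13 had an unadjusted p under 0.05. With library totals and with centering on the median it did so for 2 of the 6, MIR17HG through miR-19b-1-5p and MIR31HG through miR-31-3p. The RNAseq and small RNA tables were normalized separately, and the difference between a host and its miRNAs was not tested.

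For MIR17HG 11 mature forms were tested, and limma called 0 of them on day 5 with the deposited scaling and 1, miR-19b-1-5p, with either of the other scalings. For miR-17-5p the deposited log2 values were 11.98, 12.04 and 11.78 on day 3, 11.87, 12.06 and 11.94 on day 5, and 12.11, 12.20 and 12.16 on day 7. The libraries of days 3 and 5 overlapped, and the 95% interval of the log2 fold change was -0.24 to 0.28. miR-20a-5p, which shares its seed, had an interval of -0.26 to 0.26, and miR-18a-5p one of -0.26 to 0.28. Over the same days the host RNA had a log2 fold change with an interval of -1.43 to -0.69.
miR-19a-3p had an interval of -0.31 to 0.21, and miR-17-3p one of -0.29 to 0.17. miR-19b-3p and miR-92a-3p are also made by MIR19B2 and MIR92A2 outside this host. miR-92a-3p was the most abundant of the cluster, at 6.56% ± 0.79 (SD, n = 3) of the summed back-transformed values on day 3.
The largest differences within the cluster on day 5 were in scarce arms. miR-18a-3p had a log2 fold change of 0.35 ± 0.10 (SE; limma adjusted p = 0.054) and miR-19b-1-5p one of -0.41 ± 0.13 (limma adjusted p = 0.072). Both were called without a change in direction when all 9 libraries shared 1 fit, and miR-19b-1-5p was also called lower with library totals (-0.42, adjusted p = 0.024) and with centering on the median (-0.36, 0.040).

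miR-31-5p, known to be abundant in many colorectal tumors, had log2 values of 13.09, 13.18 and 12.88 on day 3, 13.16, 13.18 and 13.19 on day 5, and 13.74, 13.80 and 13.79 on day 7. Days 3 and 5 overlapped, and day 7 stood above both. Its log2 fold change on day 5 had an interval of -0.13 to 0.38, while that of MIR31HG was -1.22 to -0.37. Its passenger arm miR-31-3p was at 8.03, 8.01 and 7.59 on day 3 and 7.37, 7.65 and 7.51 on day 5, a difference of -0.37 ± 0.15 (limma adjusted p = 0.13) that was called without day 3 replicate 3, with library totals (adjusted p = 0.014) and with centering on the median (0.028).

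From MIR22HG, miR-22-3p took 3.81% of the summed values on day 3 and 4.20% on day 5, a difference of 0.16 ± 0.10 between the log2 values (limma adjusted p = 0.33), and its 5p arm was scarce. From MIRLET7A1HG, let-7d-3p was at 10.46, 10.44 and 10.56 on day 3 and 10.93, 11.00 and 10.90 on day 5. The groups were apart by 0.46 ± 0.10 (limma adjusted p = 0.019), in the opposite direction to the host, and of the 6 fits that each left out 1 library only that without day 3 replicate 3 called it. let-7d-5p had 0.35 ± 0.11 and let-7f-5p, also made by MIRLET7F2, 0.32 ± 0.10 (limma adjusted p = 0.072 for both), and both were called higher with library totals (adjusted p = 0.013 and 0.022) and with centering on the median (0.020 and 0.032). let-7f-1-3p had -0.21 and let-7a-3p -0.24, neither called.

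From MIR9-1HG, which was not called, miR-9-3p was at 8.65, 8.63 and 8.52 on day 3, 7.97, 8.04 and 8.04 on day 5, and 8.48, 8.45 and 8.47 on day 7. As deposited, day 5 stood below both other days, by -0.58 ± 0.10 against day 3 (limma adjusted p = 0.0064), and was called without any 1 of the 6 libraries. The day 7 level depended on the scaling. With library totals, day 7 was at -0.64 against day 3 (limma adjusted p = 0.0015) and -0.05 against day 5 (0.57). With centering on the median, day 7 was at -0.28 against day 3 (0.027). The opposite arm, miR-9-5p, had a log2 fold change of 0.01 with an interval of -0.24 to 0.26. Both arms are also made by MIR9-2 and MIR9-3.

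miR-100-5p of MIR100HG was the most abundant of the 50 miRNAs, at 15.4% of the summed values on day 3, 10.6% on day 5 and 11.6% on day 7. Its log2 values were 18.17, 18.28 and 17.72 on day 3, 17.41, 17.59 and 17.59 on day 5, and 18.05, 18.22 and 18.17 on day 7. The day 5 values lay below all of day 3, by -0.53 ± 0.16 (limma adjusted p = 0.055), and day 3 replicate 3 stood closest to them; without it the difference was -0.69 and was called (adjusted p = 0.0036), as it was with library totals (0.0078) and with centering on the median (0.015). The others of this host were not called on day 5 as deposited: miR-125b-5p, also made by MIR125B2, had -0.29, miR-100-3p -0.16, let-7a-2-3p -0.07 and miR-125b-1-3p -0.04, while let-7a-5p, which 3 hosts make, had 0.27. With library totals miR-125b-5p was called lower (adjusted p = 0.020) and let-7a-5p higher (0.022), the latter also with centering on the median (0.035).

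miR-193b-3p of MIR193BHG was at 9.96, 9.98 and 9.82 on day 3, 10.25, 10.40 and 10.39 on day 5, and 10.75, 11.03 and 10.96 on day 7. The 3 days did not overlap, and the step to day 5 was 0.43 ± 0.11 (limma adjusted p = 0.032). It was called without day 3 replicate 3 but not without any 1 of the other 5 libraries, nor with no filter on low values (adjusted p = 0.069). Where the host RNA rose, miR-34a-5p had a log2 fold change of 0.29 ± 0.14 and miR-34a-3p of 0.18 ± 0.11, and miR-3667-3p of MIR3667HG had -0.09 ± 0.18, none called as deposited. miR-34a-5p was called higher with library totals (0.28, adjusted p = 0.026) and with centering on the median (0.34, 0.035). Among hosts not called, miR-181a-2-3p of MIR181A2HG had 0.38 (limma adjusted p = 0.11) and was called with library totals (0.011) and with centering on the median (0.012). miR-940 of MIR3677HG had 0.35, miR-4713-5p 0.53 at log2 values of 3 to 4, and let-7i-5p, let-7i-3p, let-7b-5p and let-7b-3p lay between -0.00 and 0.15. Of these, miR-940 was called when all 9 libraries shared 1 fit (limma adjusted p = 0.023), and miR-4713-5p without day 3 replicate 2 (0.037).
The miRNAs of MIR200CHG ran from -0.12 (miR-200c-5p) to 0.13 (miR-141-5p), and miR-378d, which MIR378D1 also makes, had -0.03. miR-4435, also made by MIR4435-1, had 0.34, against the fall of its host. It was not called with all libraries (limma adjusted p = 0.12).

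**Figure D3:**
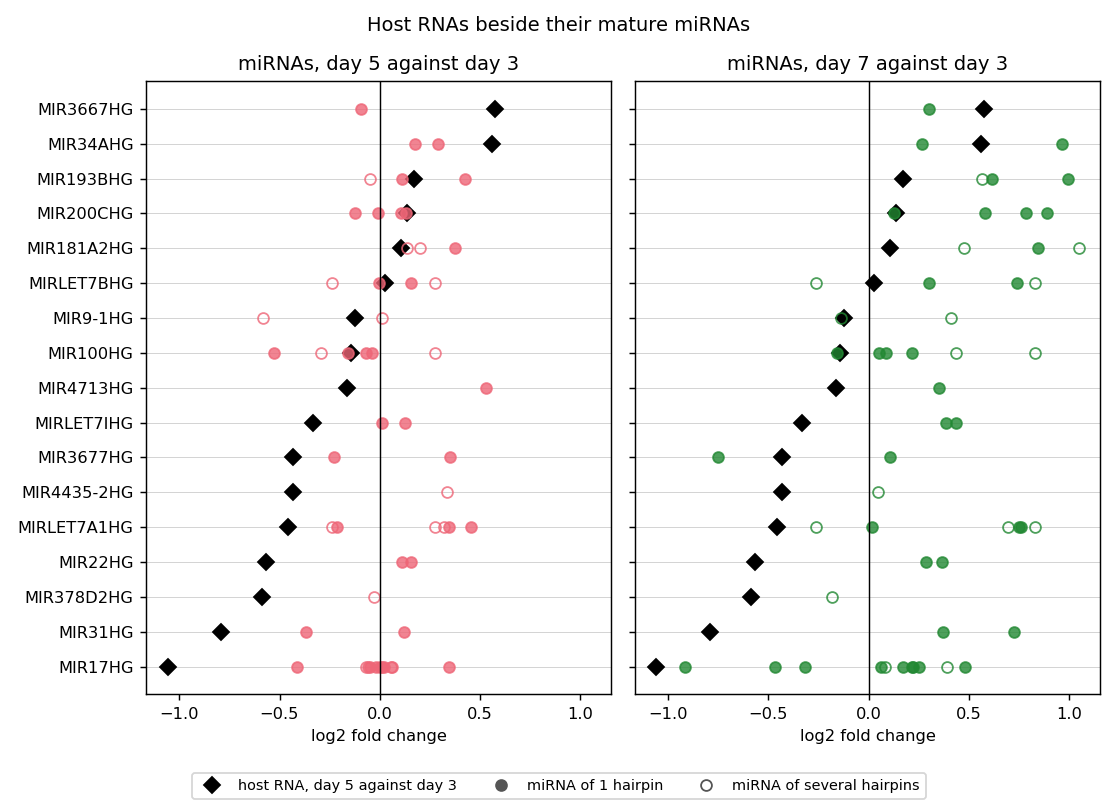
Log2 fold changes of the 17 hosts with a tested miRNA (black diamonds, RNAseq, day 5 against day 3 in both panels) beside their mature miRNAs (circles, deposited scaling) on day 5 (left) and day 7 (right) against day 3; filled circles are miRNAs of a single hairpin and open circles those of several. On the left the miRNAs of MIR17HG lie between -0.41 and 0.35 while the host is at -1.06; on the right most circles lie above 0, and with library totals in place of the deposited scaling 22 of them change sign with a call under 1 of the 2 scalings.

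By day 7 the direction depended on how the libraries were scaled. The back-transformed values of all 2167 miRNAs summed to 1542087 to 1947371 in the libraries of day 3, to 1712225 to 1884026 on day 5 and to 2452607 to 2600754 on day 7. With the deposited scaling 27 of the 50 miRNAs passed the test against day 3, 24 higher and 3 lower, beside 53.7% of 559 miRNAs (45.3% higher, 8.41% lower). With each library divided by its total, 10 were higher and 21 lower, and the median over all miRNAs tested moved from 0.30 to -0.20. Centered on the median of the well-expressed miRNAs, 20 were higher and 7 lower. Over all 559 miRNAs, 93 were higher and 226 lower with library totals, and 213 higher and 59 lower with centering. The 10 that were called higher under all 3 scalings were miR-181a-5p, miR-193b-3p, miR-34a-5p, miR-141-3p, miR-181a-2-3p, let-7a-5p, miR-200c-3p, let-7d-5p, miR-31-5p and let-7f-5p. The 3 called lower were called lower under all 3 scalings, and they were miR-19b-1-5p, miR-3677-3p and miR-19a-5p.

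miR-181a-5p had the largest rise, with log2 values of 13.63, 13.68 and 13.47 on day 3 and 14.64, 14.68 and 14.62 on day 7. The difference was 1.05 ± 0.10 (limma adjusted p = 0.00018) as deposited and 0.55 with library totals. It is also made by MIR181A1, but miR-181a-2-3p, the arm particular to the hairpin in MIR181A2HG, had 0.85 ± 0.13 as deposited and 0.34 with library totals. miR-181b-5p, with the same seed and also made by MIR181B1, had 0.47 as deposited and -0.03 with library totals.
miR-193b-3p rose by 1.00 ± 0.11 as deposited and 0.49 with library totals, and its cluster partner miR-365a-3p, also made by MIR365B, had 0.56 and 0.06. miR-34a-5p, at 8.40, 8.56 and 8.10 on day 3 and 9.35, 9.31 and 9.28 on day 7, rose by 0.96 ± 0.13 and 0.46. Its day 5 values of 8.53, 8.71 and 8.68 lay between. miR-141-3p rose by 0.89 ± 0.11 and 0.39 and miR-200c-3p by 0.78 ± 0.13 and 0.28, and from day 5 to day 7 they rose by 0.90 and 0.68 as deposited.

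Among the miRNAs of hosts whose RNA had fallen by day 5, miR-31-5p rose on day 7 by 0.72 ± 0.11 (limma adjusted p = 0.0011) as deposited and 0.22 with library totals. let-7d-5p rose by 0.75 and 0.25 and let-7f-5p by 0.70 and 0.19; let-7d-3p had 0.76 as deposited and 0.26, not called, with library totals. miR-22-3p had 0.37 ± 0.10 (adjusted p = 0.013) as deposited and -0.14 with library totals. It was not called without day 7 replicate 2 (adjusted p = 0.067).
For MIR17HG, miR-17-5p had 0.22, miR-20a-5p 0.22, miR-18a-5p 0.17, miR-19a-3p 0.25 and miR-92a-3p 0.08 as deposited, all uncalled by limma. With library totals they were at -0.28, -0.28, -0.33, -0.25 and -0.42, all called lower. Of the cluster, miR-19b-1-5p and miR-19a-5p were called in 1 direction under all 3 scalings: miR-19b-1-5p fell by 0.92 and miR-19a-5p by 0.32 as deposited. The call for miR-19a-5p was lost in 5 of the 6 fits that each left out 1 library, and held without day 3 replicate 3. Of the 6 hosts that fell and have a tested miRNA, MIR17HG was the only one with a miRNA called lower on day 7 as deposited. Under both other scalings, miR-378d of MIR378D2HG and let-7a-3p of MIRLET7A1HG, each also made elsewhere, were called lower too. Their limma adjusted p was 0.0011 and 0.00069 with library totals, and 0.011 and 0.0075 with centering on the median.
miR-3677-3p, at 4.47, 4.48 and 4.53 on day 3 and 3.68, 3.71 and 3.83 on day 7, fell by 0.75 ± 0.10 as deposited, and with library totals the difference was -1.26. miR-940, in an exon of the same host, had 0.11 as deposited and -0.39 with library totals.

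The abundant miRNAs of MIR100HG were divided. let-7a-5p rose on day 7 by 0.83 as deposited and 0.33 with library totals. miR-125b-5p had 0.44 and -0.07, and was not called as deposited without day 3 replicate 1 (adjusted p = 0.051), day 7 replicate 2 (0.10) or day 7 replicate 3 (0.094), nor with no filter on low values (0.16). miR-100-5p had 0.09 ± 0.15 as deposited, not called, and -0.41 with library totals, called. From day 5 to day 7, with all 9 libraries in 1 fit, 29 of the 50 miRNAs were called as deposited (25 higher, 4 lower), beside 44.3% of 567 miRNAs (39.3% higher, 4.94% lower), and 28 with library totals (6 higher, 22 lower). Of all 567 miRNAs, 60 were higher and 246 lower with library totals. miR-31-3p, miR-34a-5p, miR-125b-5p, miR-200c-3p, miR-141-3p and miR-181a-5p were called higher between those days under all 3 scalings.
let-7b-5p, let-7b-3p, let-7i-5p, let-7i-3p, miR-9-5p, miR-19b-3p, miR-18a-3p, miR-141-5p and miR-193b-5p were also called higher on day 7 than on day 3 as deposited, by 0.30 to 0.74, and none was called higher with library totals, where let-7b-3p, let-7i-5p, let-7i-3p, miR-9-5p, miR-19b-3p and miR-18a-3p were below 0. let-7b-3p was called in 1 of the 6 fits without a library, let-7i-3p in 2, miR-19b-3p in 4 and miR-9-5p in 5.
miR-22-5p, miR-34a-3p, miR-31-3p, miR-92a-1-5p, miR-378d, miR-4435, miR-3667-3p, miR-4713-5p, miR-200c-5p, miR-125b-1-3p, miR-100-3p, let-7a-2-3p, let-7a-3p, let-7f-1-3p and miR-9-3p were not called on day 7 as deposited, nor was miR-17-3p. Of these, let-7a-2-3p, let-7a-3p, miR-378d and miR-9-3p were called lower under both other scalings. They were at -0.66, -0.76, -0.69 and -0.64 with library totals, and at -0.30, -0.40, -0.33 and -0.28 with centering on the median. miR-92a-1-5p was called lower with library totals (-0.97) but not with centering.

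**Figure D4:**
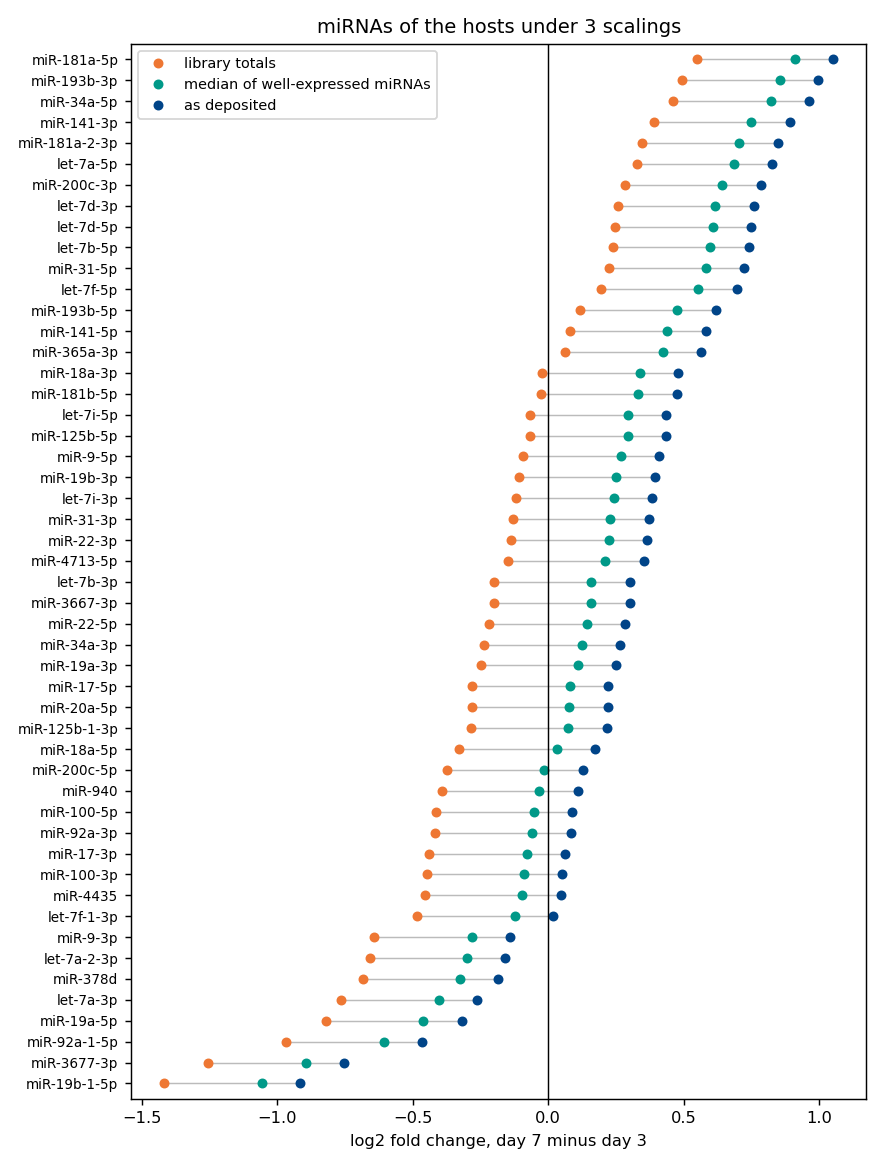
Log2 fold change (day 7 minus day 3) of the 50 mature miRNAs as deposited (blue), centered on the median of well-expressed miRNAs (green) and with library totals (orange). The 3 scalings differ by 1 shift for all miRNAs, so miR-181a-5p stays above 0 (1.05 to 0.55) and miR-19b-1-5p below 0 (-0.92 to -1.42), while miR-17-5p passes from 0.22 to -0.28. The day 7 level of miR-19b-1-5p lay near the filter limit.

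The ratio of both arms of 1 hairpin does not depend on the scaling of the library. For 13 hairpins of the hosts both arms were tested and each is made by that hairpin alone. The share of the 5p arm did not overlap between day 3 and day 5 in 4 of the 13, beside 33.7% of 101 such hairpins, and between day 3 and day 7 in 7, beside 47.5%. The exact permutation test of 3 libraries against 3 cannot go below p = 0.1, which these hairpins had (adjusted over the 13 hairpins, p = 0.325 on day 5 and 0.186 on day 7), so no share passed the threshold. Without day 3 replicate 2, the day 5 count was 8, but leaving out a library can only keep such a count or raise it.
MIR34A in MIR34AHG moved most by day 7. Its hairpin is given 5′ to 3′, with both arms in capitals (chr1:9151668-9151777, minus strand, GRCh38.p14).
MIR34A: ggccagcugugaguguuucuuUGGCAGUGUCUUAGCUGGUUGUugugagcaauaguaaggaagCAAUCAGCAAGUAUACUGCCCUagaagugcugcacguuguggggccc
The 5p arm made up 86.7%, 88.0% and 85.6% of both arms on day 3, 87.8%, 88.2% and 87.0% on day 5, and 92.1%, 91.3% and 90.8% on day 7. Day 7 stood apart from both other days.
In MIR19A the 5p arm is the scarce one and took 6.28% ± 0.30 (SD, n = 3) on day 3 but 4.32% ± 0.24 on day 7, and in MIR141 it went from 15.7% ± 0.65 to 13.1% ± 1.15. The 5p share of MIRLET7B went from 88.7% ± 1.63 to 91.5% ± 0.39 and that of MIR17 from 89.6% ± 0.41 to 90.6% ± 0.09. In MIR31 it was 97.3% ± 0.21 on day 3, 98.1% ± 0.17 on day 5 and 97.9% ± 0.26 on day 7. In MIR200C it was 1.31% ± 0.22, 1.11% ± 0.02 and 0.83% ± 0.08.
MIR18A and MIR100 completed the 4 on day 5, from 81.7% ± 2.71 to 78.1% ± 0.76 and from 99.16% ± 0.06 to 98.92% ± 0.10. In MIRLET7D, MIRLET7I, MIR22 and MIR193B the days overlapped in both comparisons.

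**Figure D5:**
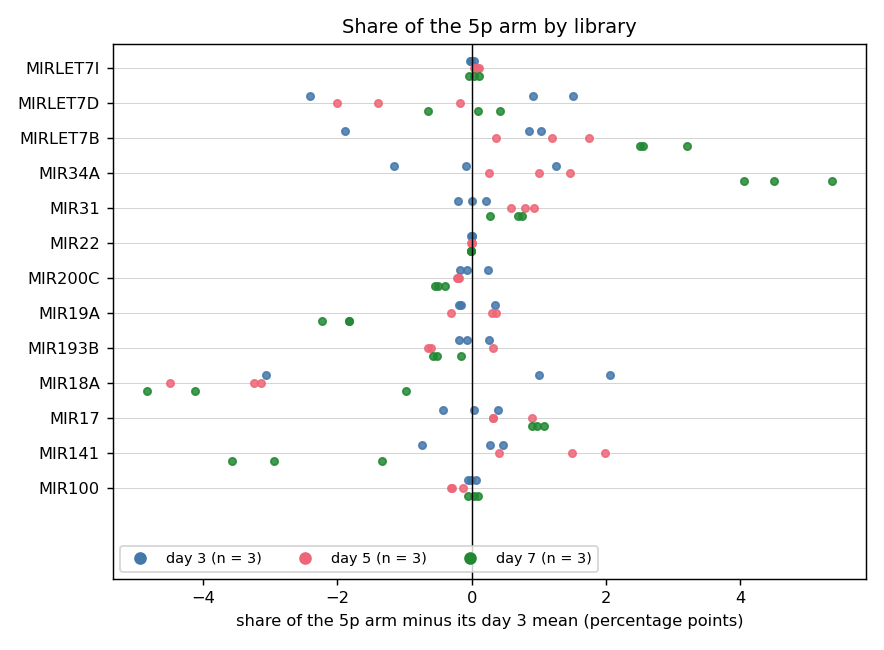
Share of the 5p arm among both arms of 13 hairpins in each small RNA library, as the difference from the hairpin's day 3 mean in percentage points; points are libraries, 3 on each day. MIR34A on day 7 lies furthest above 0 (means 91.4% on day 7 and 86.8% on day 3), MIR19A on day 7 lies below 0 (4.32% and 6.28%), and no exact test could pass the threshold.

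Protein-coding and other genes that carry miRNAs were set beside these hosts as a list chosen from textbook knowledge. Of 35 tested, 15 were higher and 8 lower on day 5, with a median log2 fold change of 0.23, against 10 lower and 4 higher of the 24 MIR hosts and beside 56.9% of all genes called (29.3% higher, 27.6% lower). The largest rises were 1.51 ± 0.11 (SE) for HUWE1, a ubiquitin ligase that carries let-7f-2 and miR-98, and 1.47 ± 0.12 for SREBF2, a sterol regulator that carries miR-33a. The largest falls were -1.09 ± 0.11 for DLEU2, the noncoding host of miR-15a and miR-16-1, and -0.82 ± 0.09 for SKA2, a spindle protein gene that carries miR-301a and miR-454.
Of 13 genes of miRNA processing and effector function, 6 were higher and 4 lower, with a median of 0.12, beside the same 56.9% of all genes called (29.3% higher, 27.6% lower). AGO2, an Argonaute that can slice its targets, rose by 0.93 ± 0.10 and AGO1 by 0.87 ± 0.08. RAN, the GTPase of nuclear export, fell by 1.23 ± 0.10 and the helicase DDX5 by 0.64 ± 0.07. DROSHA had 0.30 ± 0.07 (limma adjusted p = 0.012) and DICER1 -0.32 ± 0.07 (0.0093), while DGCR8 (-0.13) and XPO5 (0.12) did not pass.

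The RefSeq promoter window, 250 bases before to 50 after the start (300 in all), was found for 19 of the 24 hosts. Motifs were searched on both strands as letters. ACGTG, the core of the hypoxia response element, occurred in 5 of the 19 and in 21.4% of 35116 promoters, and GCGTG in 7 and 36.5%. CACGTG, which contains ACGTG, and TATAAA occurred in 0 of the 19, and in 7.26% and 11.5% of all. GGAATG was in 3 (MIR100HG, MIR600HG and MIRLET7BHG; 14.0% of all), and TGACTCA, whose other strand reads TGAGTCA, in 1 (MIR4435-2HG; 4.95% of all). None of these letters was in the windows of MIR17HG or MIR31HG.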

How the data were processed

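The authors' RNAseq table gives each gene a normalized signal in each library, made from rRNA-depleted, strand-specific reads mapped to hg38 with ENSEMBL v99 genes in CLC Genomics Workbench with TMM. These deposited signal values are whole multiples of 1 read in each library (100% within 0.01 read), and the recovered reads served edgeR and DESeq2 as alternatives. The deposited small RNA tables hold log2 values of 2167 mature miRNAs that the authors mapped to mature and hairpin sequences and normalized with TMM in edgeR. The paper gives only a range of reads for these libraries. The depth of each is unknown, so no counting error is given. Columns of fold changes and p-values from the authors' own comparisons were not used.

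A feature was tested if 3 or more of the libraries compared had a value (back-transformed for miRNAs) of 10 or above. limma 3.58.1 in R 4.3.3 was fitted to log2(value + 1) for RNAseq and to the deposited log2 values for small RNA, for each pair of days, and over all 9 libraries for day 7 against day 5. P-values are two-sided and were adjusted by Benjamini-Hochberg over all features tested, with a threshold of 0.05. Fold changes of RNAseq are on the log2(value + 1) scale, which understates low genes. edgeR 4.0.16 and DESeq2 1.42.0, other scalings (library totals; the median of miRNAs of at least 10 on average), no filter, a pseudocount of 0.1, a 2-fold minimum, a replicate block and leaving out each library were the alternatives. The fits were tested on simulated data. The members and lists were chosen with earlier results of these data known.

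Hosts were matched by gene identifier to GENCODE 44 on GRCh38, the build of the files in a later release. Hairpins within a host's span on its strand were assigned to it, and a hairpin counts as exonic if it overlaps an exon of any transcript. Every described host, every tested miRNA of these hairpins, and of each list the 2 largest rises and 2 largest falls among those called are named; DROSHA, DICER1, DGCR8 and XPO5 were added after their values were seen. Tables and plots used Python 3.11.15, with numpy 2.4.6, pandas 2.3.3 and matplotlib 3.10.9.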

Additional observations from a re-analysis of the deposited data

How the results depend on the processing

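Of the 24 hosts, 14 were called with library totals and with a pseudocount of 0.1, 13 by edgeR and by DESeq2 (each without MIR34AHG), 12 to 14 without 1 library, 9 with no filter on low values (more genes to adjust for; without MIR4435-2HG, MIRLET7A1HG, MIR600HG, MIR22HG and MIR34AHG) and 2 with a 2-fold minimum. Of the other host and processing genes, 33 were called (25 to 38 without 1 library) and 8 with the 2-fold minimum. For the 50 miRNAs on day 5, the 3 calls became 12 with library totals, 11 with centering on the median, 9 with all 9 libraries in 1 fit, 1 to 10 without 1 library and 0 with the 2-fold minimum, where limma had 13 at an unadjusted p under 0.05. Over all 539 miRNAs the 80 calls became 135 with library totals, 124 with centering and 102 with all 9 libraries in 1 fit. On day 7, the 2-fold minimum left 1 of 27 calls against day 3 and 0 of 29 against day 5 (unadjusted p under 0.05 for 30 and 34); without 1 library they were 20 to 29 and 21 to 28. Hairpins whose 5p share did not overlap numbered 4 to 8 on day 5 and 7 to 9 on day 7 without 1 library. Leaving out a library can only keep or raise this count, so these ranges do not check it.

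On day 7 against day 3, 27 miRNAs changed sign with library totals, 5 of them (miR-22-5p, miR-31-3p, miR-3667-3p, miR-4435 and miR-4713-5p) called under neither scaling. The values of the other 22 with library totals were let-7f-1-3p -0.48, miR-100-3p -0.45, miR-17-3p -0.44, miR-92a-3p -0.42, miR-100-5p -0.41, miR-940 -0.39, miR-200c-5p -0.37, miR-18a-5p -0.33, miR-125b-1-3p -0.29, miR-20a-5p -0.28, miR-17-5p -0.28, miR-19a-3p -0.25, miR-34a-3p -0.24, let-7b-3p -0.20, miR-22-3p -0.14, let-7i-3p -0.12, miR-19b-3p -0.11, miR-9-5p -0.092, miR-125b-5p -0.067, let-7i-5p -0.066, miR-181b-5p -0.028 and miR-18a-3p -0.022. Against day 5, 27 changed sign, 4 of them (miR-18a-3p, miR-200c-5p, miR-22-5p and miR-3667-3p) called under neither; the other 23 had miR-92a-3p -0.47, miR-34a-3p -0.40, miR-17-3p -0.37, miR-18a-5p -0.33, miR-17-5p -0.29, miR-22-3p -0.28, miR-100-3p -0.28, miR-20a-5p -0.28, let-7f-1-3p -0.26, miR-125b-1-3p -0.24, miR-181b-5p -0.22, miR-19a-3p -0.19, let-7d-3p -0.19, let-7b-3p -0.19, let-7i-5p -0.18, let-7i-3p -0.12, let-7f-5p -0.12, miR-9-5p -0.095, let-7d-5p -0.089, miR-9-3p -0.048, miR-141-5p -0.041, miR-19b-3p -0.031 and miR-181a-2-3p -0.022. The cause of the difference between scalings was not tested.

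Same-numbered libraries had correlations of -0.01 to 0.03 (RNAseq) and -0.08 to 0.12 (small RNA) in their deviations. Libraries with different numbers had -0.05 to 0.03 and -0.15 to 0.15. For small RNA of days 3 and 5, the same-numbered pairs had 0.09, 0.12 and 0.11, and the other pairs -0.09 to -0.02. Whether replicate numbers pair the samples is thus not settled. With a replicate block 12 hosts were called, without MIR600HG and MIR22HG, 26 of the other genes, and 3, 27 and 30 miRNAs on day 5, day 7 against day 3 and day 7 against day 5. These were not all the same miRNAs. On day 5 miR-193b-3p was lost and miR-4713-5p gained. For day 7 against day 3, let-7b-3p and miR-19a-5p were lost and miR-31-3p and miR-92a-1-5p gained. For day 7 against day 5, miR-200c-5p was gained.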

Other observations

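A further 8 genes that GENCODE 44 names as MIR hosts passed the filter in the RNAseq table under an identifier only, with no symbol, so the choice by symbol left them out; they were added after seeing the data. Of these 8, 2 passed the test, beside 56.9% of all genes tested. MIR23AHG, the host of the miR-23a, miR-27a and miR-24-2 cluster, had a mean value of 101 ± 16.3 (SD, n = 3) on day 3 and 203 ± 40.5 on day 5 (log2 fold change 0.99 ± 0.18, SE, limma adjusted p = 0.0051). MIR222HG, the host of miR-221 and miR-222, had 2119 ± 250 and 2690 ± 109 (0.35 ± 0.11, limma adjusted p = 0.034). MIR29B2CHG (721 and 630), MIR181A1HG (291 and 280), MIR130AHG (47.2 and 59.4), MIR3659HG (18.2 and 25.1), MIR503HG (11.3 and 16.7) and MIR4733HG (11.2 and 9.90) did not pass. MIR181A1HG is the other source of miR-181a-5p.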
